A study of Drosophila melanogaster with 6 samples.

Results

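The genes described here encode proteins that sense microbes, mark or engulf particles, answer stress, or hold immune proteases in check in the fruit fly Drosophila melanogaster. They were chosen by symbol alone: every probe set annotated to a single gene whose symbol begins with PGRP-, GNBP, Tep and a digit, Nim (without NimC1), Tot and a capital letter, or Spn and a digit. The rule itself uses no measured value, but it was set with earlier results of these data known. The rule gave 49 of 13966 probe sets, standing for 46 of 10844 genes with a probe set of their own. They comprise 8 probe sets for 7 PGRP genes, 2 for 2 GNBP genes, 4 for 3 Tep genes, 7 for 7 Nimrod genes, 2 for 2 Turandot genes and 26 for 25 serpin genes. A further 4 probe sets with such a symbol are annotated to several genes and were not used. A fitting symbol is carried by 66 genes of the current gene list, and those beyond the 46 were not analysed here.

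RNA of whole heads was hybridised to 6 Affymetrix DrosGenome1 arrays, short-oligonucleotide arrays with a set of probes per transcript. The 3 tim-MJD samples came from flies that combine Tim-gal4, a driver, with the transgene UAS-MJD, which encodes a polyglutamine form of the Machado-Joseph disease protein in cells where the timeless promoter is active. The labels of tim-MJD 1 and 2 name the construct MJD78Q, with a polyglutamine length of 78, and the label of tim-MJD 3 gives no length. The 3 wild type (WT) samples carry neither by their labels; the strain is CS for WT 1 and 3 and is not named for WT 2. Heads of all 6 samples were taken at Zeitgeber time 16 h from flies aged 2 to 4 days, kept in light-dark cycles for 3 days. No sample among the 6 carries just one of the driver and the transgene, so effects of the driver, the transgene and the strain background cannot be told apart. The labels do not say how many heads were pooled or whether replicates were separate collections, so p-values measure the spread between these samples, which may be technical.

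Peptidoglycan recognition proteins (PGRPs) and Gram-negative binding proteins (GNBPs) bind cell wall components of bacteria and fungi. Some switch on the Toll or Imd pathway, which lead to antimicrobial peptides, and others are amidases that degrade peptidoglycan. Thioester proteins (Teps) resemble vertebrate complement factors and can coat microbes, and Nimrod receptors take part in engulfing microbes or dying cells. Serpins block serine proteases, among them those of the cascades that lead to Toll activation and to melanin formation. Turandot (Tot) genes encode small secreted stress peptides. In adult flies the fat body and the hemocytes, which are blood cells, are main sources of many of these proteins.

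Levels are given as log2(value + 16) after quantile normalisation, where the value is the deposited intensity. A level is called above control when it exceeds that of each of 23 negative control probe sets hybridised alongside; the brightest of these lay between 5.59 and 5.69. Between 40.2% and 44.4% of all probe sets were above control on an array, and between 20 and 27 of the 49 members. Photoreceptor markers (chp, trp, Arr2) and the neuron markers elav, nSyb and brp were above control on all 6 arrays, and the neuron marker para was below it on all. The scan day was shared within each group and differed between groups, so day and genotype cannot be told apart. The 18S ribosomal RNA control read between 16.67 and 17.56 on tim-MJD arrays, against 12.49, 11.79 and 16.92 on WT 1, 2 and 3. The 3′ probe set of the control transcript eIF-4a exceeded the 5′ one by 2.68 to 2.88 log2 units on tim-MJD arrays, against 3.13, 9.45 and 3.71 on WT 1, 2 and 3. Female fat body markers were far lower on tim-MJD 2 than elsewhere, with Yp2, a yolk protein, at 10.02 there and between 18.36 and 19.72 on the other 5 arrays.

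Which recognition, opsonin and inhibitor genes differed between tim-MJD and WT heads? Tep4, a thioester protein, and Spn88Ea, a serpin, rose in tim-MJD heads, and no other member passed an adjusted p of 0.05 (limma with Benjamini-Hochberg adjustment over all 8379 probe sets tested; 2.48% of them passed). Tep4 read 13.61, 13.95 and 13.39 in tim-MJD heads, against 9.54, 9.98 and 10.20 in WT heads. The groups did not overlap, and the gap between them was far wider than the spread within either. The rise of Tep4 was 3.74 ± 0.22 (SE, n = 3 each, adjusted p = 0.00257), with a 95% interval of 3.18 to 4.31. Spn88Ea read 10.83, 11.35 and 11.30 in tim-MJD heads, against 7.77, 8.12 and 7.66 in WT heads. These groups too were far apart, and the 3 arrays of each lay close together. The rise of Spn88Ea was 3.31 ± 0.19 (adjusted p = 0.00257), with an interval of 2.83 to 3.80. In RNA of whole heads, a change in the number of expressing cells and a change in RNA per cell cannot be told apart.

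**Figure D1:**
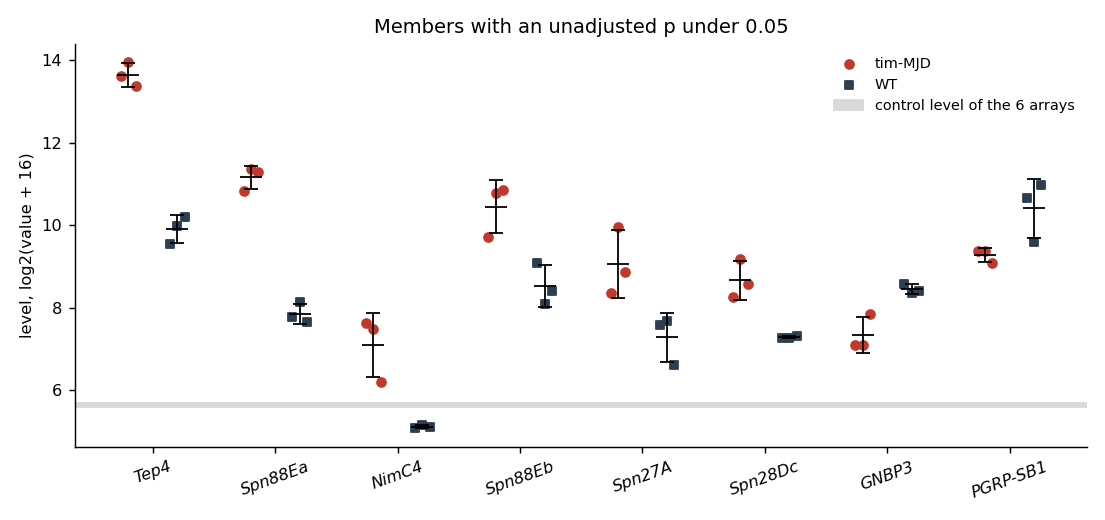
Levels, log2(value + 16), of the 8 members with an unadjusted p under 0.05, with tim-MJD arrays (red circles) left of WT arrays (dark squares), bars for the mean ± SD of 3 arrays and a grey band for the control level of the 6 arrays. Tep4 and Spn88Ea have wide gaps between the groups, and NimC4 lies below the band on all WT arrays. Levels of different probe sets are not comparable with each other.

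Of the 49 members 29 passed the filter on dim probe sets and were tested. The 2 that rose compare with 2.48% of all tested probe sets called in either direction and 1.54% called higher, and 0 members were called lower, against 0.943% of all tested. At an unadjusted p under 0.05 there were 6 members higher and 2 lower, where 7.7% and 7.95% of all tested probe sets were. The median difference of the 29 was 0.14, and that of all tested probe sets was -0.0026. The median of the members was 0.037 without tim-MJD 3, 0.051 without WT 1, 0.052 with the 18S control as a covariate, 0.0057 with the fluidics module as a block and 0.028 without a filter. The median without a filter covers all 49 members, and the one without tim-MJD 3 covers 30. A member could pass the filter through the group in which it is high, so the filtered figures describe the tested members and not the whole set. Of the 29, 14 had groups that did not overlap, or 48.3%, against 21.9% of all tested probe sets.

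The scale of the deposited values is not stated, and their maxima, between 2141000 and 2888000, exceed a 16-bit scan. If log2 summaries had been raised as powers of e before deposit, the difference in log2 units would be 2.61 for Tep4 and 2.36 for Spn88Ea. On that reading, chosen after seeing the data, both still passed. With the fluidics module as a block, a fit with few residual degrees of freedom, limma called 0 of 8379 probe sets, with 980 at an unadjusted p under 0.05. Tep4 then differed by 3.69 (adjusted p = 0.242) and Spn88Ea by 3.20 (adjusted p = 0.269). Both groups had 1 array in module 1 and 1 in module 2. Within these modules Tep4 was higher in tim-MJD by 3.63 and 3.75, and Spn88Ea by 2.71 and 3.70.

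Among the recognition proteins the differences were smaller, and none of the 8 tested PGRP and GNBP probe sets passed. GNBP3, which binds fungal beta-glucan upstream of Toll, read 7.08, 7.09 and 7.84 in tim-MJD heads, against 8.58, 8.36 and 8.40 in WT heads. Every tim-MJD array lay below every WT array. The difference of GNBP3 was -1.11 ± 0.23 (adjusted p = 0.0803, interval -1.68 to -0.54). Without tim-MJD 3, the highest array of its group, the difference was -1.39 (adjusted p = 0.0154). GNBP3 was also called without normalisation between arrays (-1.31, adjusted p = 0.0249) and with 60% of probe sets left out (adjusted p = 0.0465). In all it passed under 3 of 20 alternatives, and its adjusted p reached 0.294. GNBP2, its relative, read between 6.26 and 6.31 in tim-MJD heads and between 6.27 and 6.60 in WT heads, with an interval of the difference of -0.36 to 0.16.

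PGRP-SB1, an amidase that breaks down peptidoglycan, read 9.37, 9.37 and 9.08 in tim-MJD heads, against 10.66, 9.60 and 10.96 in WT heads. The groups did not overlap, but WT 2 came close to the tim-MJD arrays. The difference was -1.13 ± 0.37 (adjusted p = 0.218, interval -2.06 to -0.21). Without WT 2, the array with the large 3′ to 5′ gap, it was -1.53 (adjusted p = 0.0334), and with that gap as a covariate it was -1.67 (adjusted p = 0.0451). Within fluidics modules 1 and 2 it was -0.23 and -1.59. PGRP-SB1 passed under 2 of 20 alternatives, and its adjusted p reached 0.653. Its neighbour PGRP-SB2 was below control on all 6 arrays and had no measurable difference.

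Within the PGRP family, PGRP-LE, PGRP-LB, PGRP-LF and PGRP-LA lay within narrow ranges. PGRP-LC, a receptor of the Imd pathway, had no probe set among the members, so its level is not known here. PGRP-LE, which detects peptidoglycan inside and outside cells, read 5.69, 5.99 and 5.70 in tim-MJD heads, against 5.58, 5.66 and 5.55 in WT heads. All 3 tim-MJD arrays were above control and 1 of 3 WT arrays was. The difference was 0.20 ± 0.10 (adjusted p = 0.453). PGRP-LB, an amidase that dampens Imd signalling, differed by 0.07, with an interval of -0.19 to 0.33. PGRP-LF, which restrains the pathway at the cell surface, differed by 0.14, with an interval of -0.23 to 0.51. The brighter probe set of PGRP-LA read between 6.94 and 7.17 in tim-MJD heads and between 6.55 and 6.90 in WT heads. Its difference was 0.31 ± 0.13 (adjusted p = 0.324), whereas the other PGRP-LA probe set lay below control on all arrays.

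PGRP-SC2, an amidase, was too dim to be tested but differed between arrays of one group. It read 5.82, 6.04 and 4.78 in tim-MJD heads, against 4.63, 4.66 and 4.64 in WT heads. It was above control on tim-MJD 1 and 2 only. tim-MJD 3 stayed below control, as did all WT arrays.

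Among the Teps, Tep4 stood alone in passing the threshold. Tep3 read 6.05, 6.30 and 5.48 in tim-MJD heads, against 5.38, 5.44 and 5.43 in WT heads. It was above control on 2 of 3 tim-MJD arrays and on 0 of 3 WT arrays. The difference was 0.53 ± 0.21 (adjusted p = 0.333), with an interval of -0.01 to 1.07 that includes 0. As a bound of the mean against control level it was at least 0.33, with no allowance for the spread. Tep5Psi, annotated as a pseudogene and separated from Tep4 by 1 gene in the gene table, has 2 probe sets. One was below control on every array, and the other differed by 0.03, with an interval of -0.16 to 0.22.

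**Figure D2:**
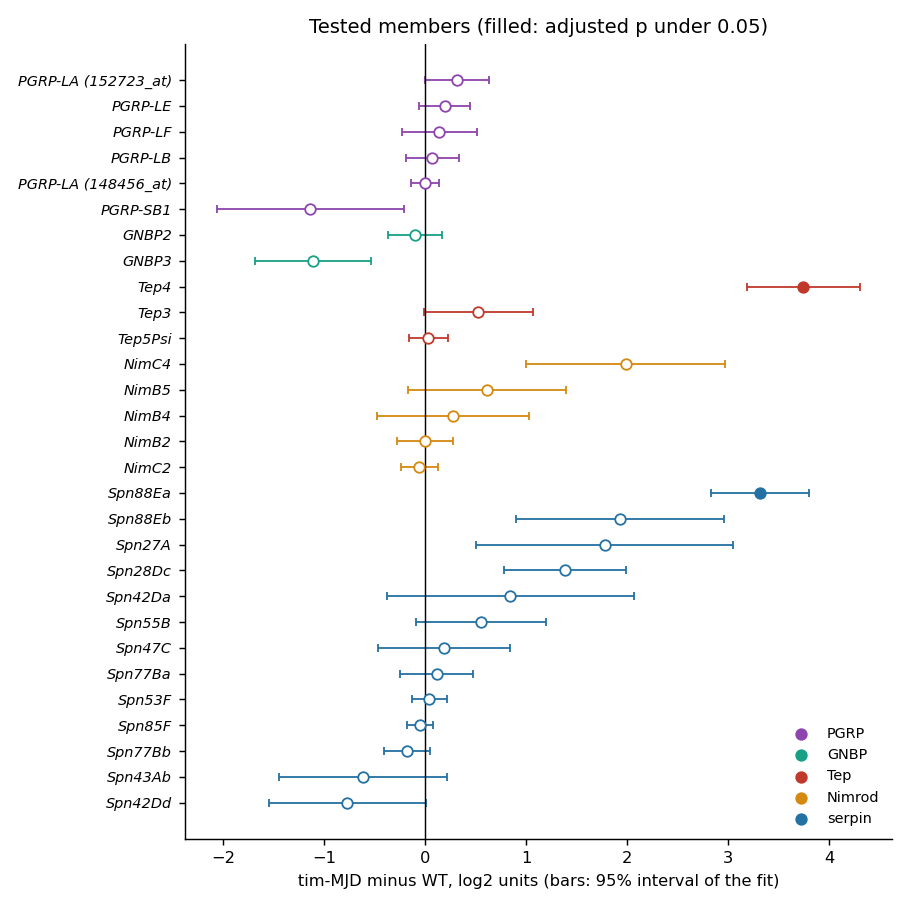
Differences between tim-MJD and WT in log2 units for the 29 tested members, ordered by family, with 95% intervals from the limma fit. Filled circles passed an adjusted p of 0.05, which were Tep4 and Spn88Ea. Among the members that did not pass, the intervals of GNBP3 and PGRP-SB1 lie below 0. Those of NimC4, Spn88Eb, Spn28Dc and Spn27A lie above 0.

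In the Nimrod family NimC4 had the largest difference of the 5 tested members, and 0 of 5 passed. NimC4 encodes a receptor for dying cells, also called Simu, known from fly glia and macrophages. It read 7.62, 7.47 and 6.20 in tim-MJD heads, against 5.08, 5.15 and 5.09 in WT heads. It was above control on every tim-MJD array and on none of the WT arrays, and tim-MJD 3 lay well below the other tim-MJD arrays. The fitted difference was 1.99 ± 0.39 (adjusted p = 0.0732, interval 1.00 to 2.97). The bound of the mean against control level was at least 1.48, with no allowance for the spread. Within modules 1 and 2 NimC4 differed by 2.47 and 2.38. Without tim-MJD 3 the difference was 2.49 and passed (adjusted p = 0.00242). It also passed with a pseudocount of 1 (adjusted p = 0.0467), without normalisation between arrays (0.0479) and with array weights (0.0456). The same held with 60% left out (0.0391) and on the natural log scale (0.0447). NimC4 passed under 6 of 20 alternatives in all, and its adjusted p reached 0.266. Its WT levels were as low as those of members left out as too dim, so it was tested through its tim-MJD arrays. Without a filter its adjusted p in limma was 0.1765.

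NimB5 and NimB4, secreted Nimrod proteins, were also lowest on tim-MJD 3 among the tim-MJD arrays. NimB5 read 6.56, 6.44 and 5.53 in tim-MJD heads, against 5.80, 5.31 and 5.58 in WT heads. Its groups overlapped, and the difference was 0.61 ± 0.31 (adjusted p = 0.443). NimB4 read 6.07, 5.77 and 5.25 in tim-MJD heads, against 5.76, 5.56 and 4.93 in WT heads, a difference of 0.28 (adjusted p = 0.747). Both lay close to control level, with 2 of 3 tim-MJD arrays and 1 of 3 WT arrays above it. NimB2, a secreted member at a measurable level on all arrays, read between 11.46 and 11.76 in tim-MJD heads and between 11.52 and 11.76 in WT heads. Its interval, -0.28 to 0.27, leaves room for small differences only. NimC2 differed by -0.06 (interval -0.24 to 0.13). NimB1 and NimC3 were below control on every array.

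Both Turandot genes of the set, TotB and TotE, were below control on all 6 arrays. TotB read between 4.93 and 5.16 in tim-MJD heads and between 4.95 and 5.09 in WT heads. TotE read between 4.88 and 4.91 in tim-MJD heads and 4.89 on each WT array. A difference was not detectable at these levels.

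Of 26 serpin probe sets 13 were tested. Besides Spn88Ea, 3 had an unadjusted p under 0.05, all with higher values in tim-MJD heads, and none of the 3 passed. Spn88Eb, which lies next to Spn88Ea with 0 genes between them in the gene table, read 9.71, 10.79 and 10.85 in tim-MJD heads, against 9.07, 8.08 and 8.40 in WT heads. Its groups did not overlap, but tim-MJD 1 and WT 1 were close. The difference was 1.93 ± 0.41 (adjusted p = 0.0860, interval 0.90 to 2.96). It passed under 1 of 20 alternatives, with 60% of probe sets left out (adjusted p = 0.0465), and its adjusted p reached 0.34. Whether probes of one of these related genes also bind transcripts of the other was not tested.

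Serpins known to restrain melanization did not pass either. Spn28Dc, a limiter of prophenoloxidase activation, read 8.25, 9.18 and 8.56 in tim-MJD heads, against 7.26, 7.27 and 7.31 in WT heads. The WT arrays were nearly identical, and every tim-MJD array was above them. The difference was 1.38 ± 0.24 (adjusted p = 0.0572, interval 0.78 to 1.98). It passed without tim-MJD 1 (1.59, adjusted p = 0.0423) and without tim-MJD 2 (1.13, adjusted p = 0.0272). It also passed with a pseudocount of 1 (adjusted p = 0.0460), with 60% left out (0.0310) and on the natural log scale (0.0451). Spn28Dc passed under 5 of 20 alternatives in all, and its adjusted p reached 0.381.

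Spn27A, which blocks the protease that activates prophenoloxidase, read 8.35, 9.96 and 8.87 in tim-MJD heads, against 7.56, 7.68 and 6.60 in WT heads. The groups did not overlap, and both were widely spread. The difference was 1.78 ± 0.51 (adjusted p = 0.167, interval 0.51 to 3.05). Within fluidics modules 1 and 2 it was 0.67 and 3.36. Spn77Ba, which controls melanization in the airways, read between 7.86 and 8.21 in tim-MJD heads and between 7.73 and 8.14 in WT heads. Its difference was 0.11, with an interval of -0.25 to 0.48.

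The cluster of 5 neighbouring Spn42D genes was divided. Spn42Dd read 8.10, 8.10 and 7.14 in tim-MJD heads, against 8.84, 8.33 and 8.48 in WT heads. The groups did not overlap, and the difference was -0.77 ± 0.31 (adjusted p = 0.322). Spn42Da, an inhibitor of furin-like proteases, read 6.99, 7.27 and 7.18 in tim-MJD heads, against 7.26, 6.33 and 5.33 in WT heads. The WT arrays were widely spread and reached into the tim-MJD range, and the difference was 0.84 ± 0.49 (adjusted p = 0.511). The other 3 genes of the cluster, Spn42Db, Spn42Dc and Spn42De, were below control on every array.

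The remaining tested serpins had adjusted p values between 0.399 and 0.864. Spn55B read 7.14, 7.05 and 7.97 in tim-MJD heads, against 6.76, 6.87 and 6.86 in WT heads, a difference of 0.55 ± 0.26. Spn43Ab read 9.94, 9.67 and 9.60 in tim-MJD heads, against 10.98, 9.71 and 10.34 in WT heads, a difference of -0.61 ± 0.33. In Spn55B the groups did not overlap, with tim-MJD 3 well above tim-MJD 1 and 2, and in Spn43Ab the groups overlapped. Spn47C differed by 0.18 and the brighter Spn77Bb probe set by -0.18, with intervals that include 0. Spn53F and Spn85F passed the filter but lay below control on all arrays. The 13 serpin probe sets that were not tested were all below control.

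**Figure D3:**
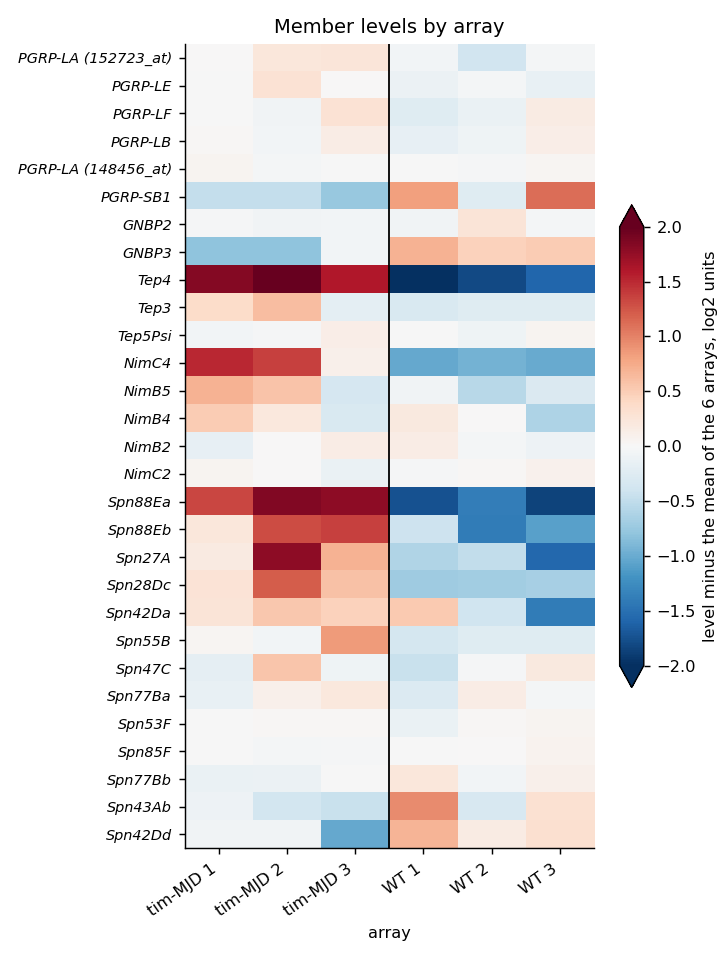
Level of each tested member on each array minus its mean over the 6 arrays, in log2 units (red above, blue below, colours end at 2), with tim-MJD arrays left of the line and WT arrays right of it. Tep4 and Spn88Ea split evenly by group, whereas tim-MJD 3 is set apart from tim-MJD 1 and 2 in NimC4, NimB5 and Spn42Dd.

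The order of the 3 tim-MJD arrays differed between members. Within that group Spn27A, Spn28Dc, Spn88Ea, Tep4 and Tep3 were highest on tim-MJD 2. tim-MJD 3 was the lowest of its group for Tep4, Tep3, NimC4, NimB4, NimB5, NimC2, Spn42Dd, Spn43Ab and PGRP-SB1. The members highest on tim-MJD 3 included GNBP3, Spn55B and Spn88Eb. Over the 29 tested members tim-MJD 1 was highest of its group in 10, tim-MJD 2 in 9 and tim-MJD 3 in 10, and they were lowest in 14, 6 and 9. WT 1, 2 and 3 were highest of their group in 9, 8 and 12, and lowest in 13, 10 and 6. In neither group was any array highest or lowest for most members.

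The pathways in which these proteins act were read from lists of other genes, each by its brightest probe set. Over all tested probe sets 7.7% had an unadjusted p under 0.05 with a higher value in tim-MJD heads and 7.95% with a lower one. Of 16 tested Toll pathway genes 0 passed in limma, while 5 reached an unadjusted p under 0.05, all with higher values in tim-MJD heads. The median of this list was 0.05. spz, the ligand of the Toll receptor, read 8.29, 9.85 and 9.24 in tim-MJD heads, against 6.98, 6.68 and 7.11 in WT heads. Its difference was 2.20 ± 0.41 (adjusted p = 0.0653). nec, a serpin that holds back the cascade to Toll and carries no Spn symbol, differed by 1.62 ± 0.35 (adjusted p = 0.0872). The cascade proteases grass and SPE differed by 1.21 (adjusted p = 0.0741) and 1.01 (0.141), and cact, the inhibitor of the Toll transcription factors, by 0.73 (0.317). All 5 were highest on tim-MJD 2.

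Of 12 tested Imd pathway genes 0 passed, with a median of 0.12. Rel, the transcription factor of the pathway, read 7.96, 9.04 and 8.08 in tim-MJD heads, against 6.63, 6.85 and 6.85 in WT heads. The groups did not overlap, and the difference was 1.58 ± 0.30 (adjusted p = 0.0719). ben and akirin had unadjusted p values under 0.05 as well. Of 4 tested JAK-STAT genes, a pathway known to act on Tot and Tep genes, 0 passed and 0 had an unadjusted p under 0.05. Its receptor dome differed by 0.88 (adjusted p = 0.404) and the brighter Stat92E probe set by -0.86 (adjusted p = 0.461).

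Of 9 tested melanization genes 0 passed and 2 had an unadjusted p under 0.05, both with higher values, against 7.7% of all tested probe sets. ple, the tyrosine hydroxylase that feeds melanin synthesis, differed by 2.37 (adjusted p = 0.0870) and Ddc, a later enzyme of the route, by 0.83 (0.232). Neither PPO1 (-0.20) nor PPO2 (0.51), the prophenoloxidases, had an unadjusted p under 0.05. Of 23 listed antimicrobial peptide genes 11 had a probe set of their own. Among the 10 tested, 4 rose, namely Drs, BomS4, Mtk and BomS2, 6 did not pass and 0 fell, with a median of 2.90. Over all tested probe sets 1.54% were called higher. Of the 6 that did not pass, DptB differed by 5.04 (adjusted p = 0.0586) and BomS5 by 2.42 (0.1235), both without overlap of the groups. Def had the only negative difference (-0.38).

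**Figure D4:**
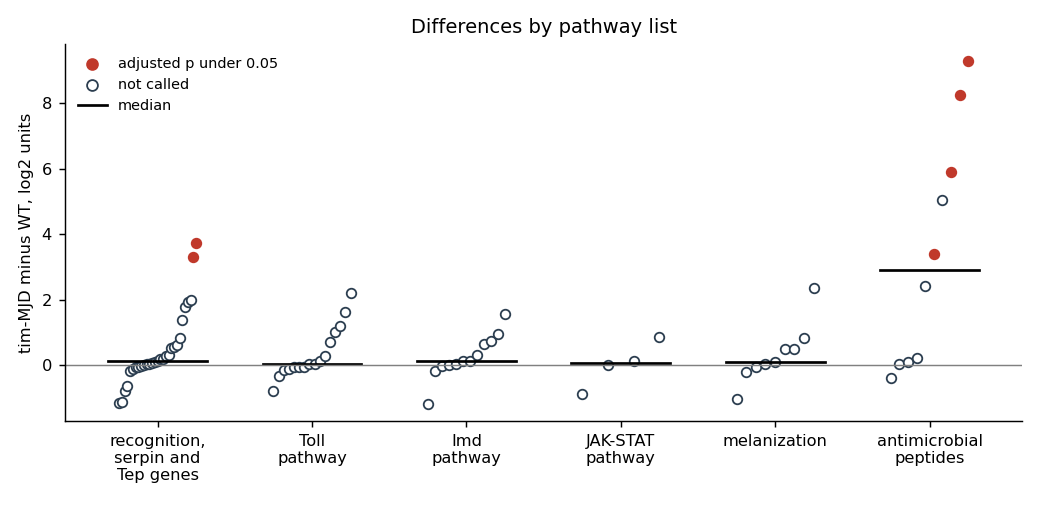
Differences between tim-MJD and WT in log2 units for the 29 tested members and for the tested genes of 5 pathway lists, with red circles for an adjusted p under 0.05 and a line for each median. In the Toll, Imd, JAK-STAT and melanization lists no gene was called, whereas 4 antimicrobial peptide genes were.

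Markers of the cells that make many of these proteins moved differently. Of 10 tested fat body markers 0 passed. At an unadjusted p under 0.05, 1 was higher and 3 were lower in tim-MJD heads, where 7.7% and 7.95% of all tested probe sets were. The summed intensity of the 10 markers lay between 6445 and 26030 on tim-MJD arrays and between 39730 and 111400 on WT arrays. Lsp2, a storage protein, read 12.92, 9.56 and 11.48 in tim-MJD heads, against 16.11, 13.92 and 13.36 in WT heads (difference -3.14, adjusted p = 0.257). Fbp1 and Fbp2 were below control on all arrays. The 4 female fat body markers summed to between 40370 and 2255000 on tim-MJD arrays and between 2344000 and 3521000 on WT arrays, and 0 of 4 passed. Lsp2 and apolpp, a lipid carrier, made up between 50.2% and 75.2% of the sum of the 10 fat body markers on tim-MJD arrays and between 79.8% and 88.8% on WT arrays. Over single markers the median difference was -0.27, with 7 of 10 negative, and bmm, a lipase, had a higher value in tim-MJD heads (0.43, adjusted p = 0.112). The 3 tim-MJD arrays, on which Tep4 and Spn88Ea were higher, had the lower sums of fat body markers, and without tim-MJD 2 both still passed (adjusted p = 0.00739 and 0.00848). The part of fat body content in these differences was not tested.

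All 10 matched hemocyte markers were tested, and 0 passed. At an unadjusted p under 0.05 there were 0 higher and 2 lower, where 7.7% and 7.95% of all tested probe sets were. The 2 were the scavenger receptor Sr-CI (-0.61, adjusted p = 0.0823) and NimC1 (-0.27, adjusted p = 0.313). The median difference of the hemocyte markers was -0.08, with 7 of 10 negative. Their summed intensity lay between 676.7 and 905 on tim-MJD arrays and between 691.4 and 901.9 on WT arrays. Hml, a marker of plasmatocytes, read 8.08, 8.31 and 7.07 in tim-MJD heads, against 6.70, 7.09 and 7.32 in WT heads. tim-MJD 1 and 2 were above all WT arrays for Hml and tim-MJD 3 was not. Within the tim-MJD group Hml, Sr-CI, PPO1 and PPO2 were lowest on tim-MJD 3, as NimC4 was. By contrast, NimC1, Pxn and eater, a phagocytic receptor, were lowest on tim-MJD 2, and srp, crq and lz were highest on tim-MJD 3. eater was above control on 1 of 3 tim-MJD arrays and on 0 of 3 WT arrays. Of 4 glial markers 0 passed and 1, alrm, had an unadjusted p under 0.05, with a lower value in tim-MJD heads (-0.90). The part of hemocyte or glial content in the NimC4 values was not tested.

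**Figure D5:**
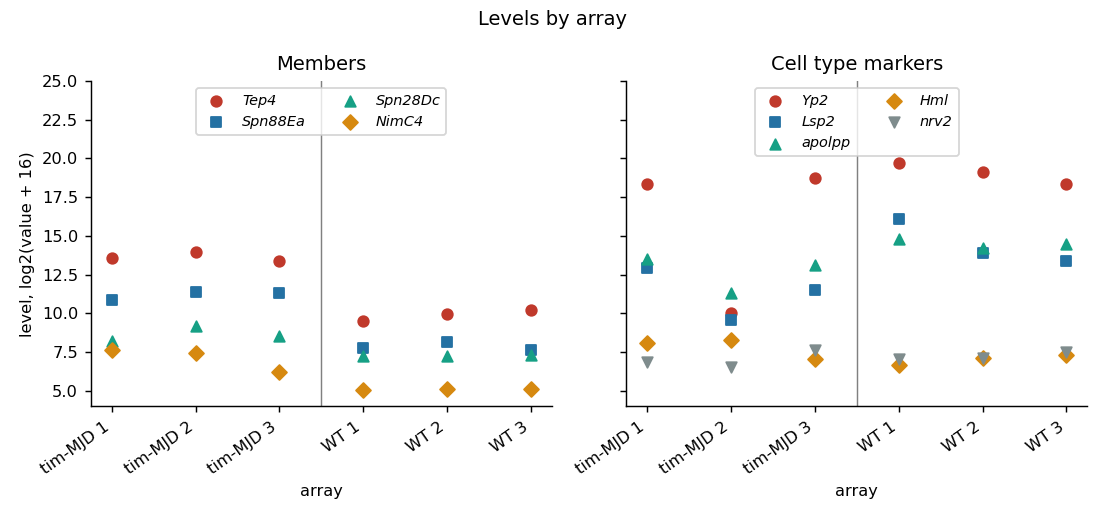
Levels, log2(value + 16), by array of 4 members (left) and 5 markers of fat body (Yp2, Lsp2, apolpp), hemocytes (Hml) and glia (nrv2) (right), with tim-MJD arrays left of the line in each panel. Tep4 and Spn88Ea are higher on all tim-MJD arrays, whereas Yp2 drops to 10.02 on tim-MJD 2. The 5 markers are examples from longer lists. In the hemocyte list 7 of 10 differences were negative, unlike that of Hml. In the fat body list 3 of 10 were positive, unlike those of Lsp2 and apolpp.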

How the data were processed

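The authors deposited a linear intensity for each probe set. How they corrected background, summarised probes and normalized the arrays is not stated in the labels or files. The array description files give DrosGenome1, fluidics modules and scan days, per the file headers. Names were taken from the platform annotation, and all 46 member genes matched a current gene table by identifier, with identical symbols. Of 14010 probe sets 44 were array controls, left out of the tests.

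log2(value + 16) was quantile normalized over the other 13966, and controls were placed on the same curve by interpolation. The lowest 40% by mean over the 6 arrays were left out. The remaining 8379 were fitted with limma 3.58.1 in R 4.3.3 (lmFit, eBayes, two-sided, Benjamini-Hochberg over all, threshold 0.05), and n is 3 arrays per group throughout. A bound ("at least") applies where all arrays of a group lay at or below control level, each array then counting at the higher of control level and its own value. It is a difference of means and makes no allowance for the spread between arrays. The fit was tested on simulated data with independent noise of the same size in both groups. That simulation held no effect of scan day, fluidics module or RNA quality, so it cannot speak to them. Every member may be named. Full values are given for Tep4, Spn88Ea, called members and those with an unadjusted p under 0.05, and other members chiefly by range. Members and lists were chosen with earlier results of these data known. No sequences were used. Figures were drawn with matplotlib 3.10.9. Alternatives are given at the end. The number of arrays limits the precision.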

Additional observations from a re-analysis of the deposited data

How the results depend on the processing

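Calls among all probe sets numbered 208 and, under alternatives that moved this by over 1.5 times, 122 with median centring, 102 without a filter, 387 with 60% left out, 84 with the replicate block, 0 with the fluidics module block (980 at an unadjusted p under 0.05), 94 with the 3′ to 5′ covariate and 42 with the 18S covariate, and 88 to 200 with 1 array left out (88 without WT 1, 117 without WT 2, 112 without tim-MJD 3). The split was 129 higher and 79 lower, 123 and 144 without normalization between arrays, and 74 and 28 without a filter. Members called higher numbered 2, and 5 with 60% left out, 4 with a pseudocount of 1 and with the natural log, 0 with the module block, and 2 to 3 with 1 array left out. Members called lower numbered 0 in limma, where 2 had an unadjusted p under 0.05, and 1 with 60% left out, without normalization and with the 3′ to 5′ covariate, and 0 to 1 with 1 array left out. The median of the tested members was 0.14, 0.028 over all 49 members without a filter, 0.052 with the 18S covariate, 0.0057 with the module block and 0.037 to 0.19 with 1 array left out. Tep4 and Spn88Ea passed under 19 of 20 alternatives, with adjusted p up to 0.0221 and 0.0214 when 1 array was left out. The other 6 members with an unadjusted p under 0.05 kept their sign under all 20. They passed under 6 (NimC4), 5 (Spn28Dc), 3 (GNBP3), 2 (PGRP-SB1), 1 (Spn88Eb) and 0 (Spn27A) of the 20. Of the remaining 21 tested members 0 were called under any alternative. Of these, 9 changed sign under at least 1 (adjusted p between 0.744 and 0.999 where they did), with main differences between -0.10 and 0.18. Where the sign changed, the differences without normalization between arrays were 0.017 for the dimmer PGRP-LA probe set, -0.030 for PGRP-LB and -0.084 for Spn77Ba. With median centring they were -0.052 for PGRP-LB and -0.11 for Spn77Ba. For the dimmer PGRP-LA probe set they were 2e-04 with cyclic loess and 0.020 with array weights. With the module block they were -0.022 for Tep5Psi, -0.021 for Spn53F, -0.055 for PGRP-LF, -0.043 for PGRP-LB, -0.070 for Spn77Ba and 0.0057 for the dimmer PGRP-LA probe set. With the 3′ to 5′ covariate they were -0.012 for Tep5Psi and 0.042 for GNBP2. With the 18S covariate they were 0.052 for NimB2, -0.057 for Tep5Psi, -0.021 for Spn53F, -0.12 for PGRP-LF, 0.016 for GNBP2, -0.054 for Spn47C and -0.11 for PGRP-LB. With 1 array left out the ranges were -0.075 to 0.075 for NimB2, -0.025 to 0.068 for Tep5Psi, -0.016 to 0.075 for Spn53F, -0.027 to 0.018 for the dimmer PGRP-LA probe set, -0.16 to 0.0063 for GNBP2 and -0.043 to 0.34 for Spn47C. Whether replicate numbers pair the samples was not settled. Deviations of same-numbered arrays correlated at 0.29, 0.05 and 0.30 for numbers 1, 2 and 3, and those of other array pairs between -0.31 and 0.11. Each tim-MJD array correlated best with the WT array of its own number, though WT 2 correlated better with tim-MJD 1 (0.11). Causes of these shifts were not tested.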

Other observations

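A few relatives of these genes carry other symbols and were picked with their values known. drpr, the engulfment receptor Draper related to the Nimrod proteins, read 10.24, 11.41 and 11.21 in tim-MJD heads, against 9.62, 9.86 and 9.72 in WT heads by its brighter probe set. Its groups did not overlap, and the difference was 1.22 ± 0.32 (limma, adjusted p = 0.140). The scavenger receptor Sr-CI read 7.02, 7.03 and 6.94 in tim-MJD heads, against 7.43, 7.52 and 7.86 in WT heads, a difference of -0.61 ± 0.13 (adjusted p = 0.0823). The serpin gene Acp76A, known from the male accessory gland, differed by 0.03 and stayed near control level. None of the 3 passed the threshold.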
